A study of Mus musculus with 6 samples.

Results

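The secreted Wnt antagonists described here are 8 mouse genes, Dkk1, Dkk2, Dkk3, Sfrp1, Sfrp2, Frzb, Wif1 and Notum, which were selected by symbol from a deposited table of 14366 genes. All 8 were present in the table. Their transcripts were measured by RNA-seq in mesonephroi taken from male embryos on embryonic day 16.5, the tissue that holds the Wolffian duct, its mesenchyme and, in this dissection, the mesonephric tubules. The 3 control libraries carried the Osr2Cre transgene with a single floxed Gata2 allele (Osr2Cre+;Gata2-flox/+), and the 3 libraries labelled Gata2cKO carried the same Cre with both alleles floxed (Osr2Cre+;Gata2-flox/flox). All 6 libraries therefore shared the Cre and at least 1 floxed allele. Osr2 is a gene of urogenital mesenchyme, so the Cre directs recombination to cells with Osr2 activity, and the whole tissue was sequenced with its epithelium, vessels and blood. Separate embryos or pools are not named for the replicates, so a p-value here reflects only the spread between libraries, which may be technical. The comparison bears on what mesenchymal Gata2 does in development of the Wolffian duct.

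Wnt proteins are lipid-modified signals that bind Frizzled receptors together with the co-receptors Lrp5 and Lrp6, which stabilises beta-catenin in the receiving cell. Secreted antagonists act before that step, at different points. Dkk1 and Dkk2 bind Lrp5 and Lrp6, with Kremen proteins as additional receptors, whereas Sfrp1, Sfrp2 and Frzb carry a Frizzled-like domain and, like Wif1, bind Wnt proteins themselves. Notum is an enzyme that removes the lipid from Wnt proteins. In the urogenital tract, Wnt signals pass between duct epithelium and mesenchyme.

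Reference sequence before the start sites of Dkk1, Dkk2 and Wif1 is shown because these were the 3 antagonists that rose. Shared regulation of the 3 genes was not tested. The RefSeq promoter set (GRCm38.p6, from 250 bases before to 50 bases after each start) held 5 of the 8 genes, Dkk1, Dkk2, Sfrp2, Frzb and Wif1. Only the bases lying before both the RefSeq start and the GENCODE gene model are printed at length, 5′ to 3′ on the gene's strand, with matches to the letters TATAAA on either strand in capitals.
Dkk2, chr3:132085042-132085291, plus strand: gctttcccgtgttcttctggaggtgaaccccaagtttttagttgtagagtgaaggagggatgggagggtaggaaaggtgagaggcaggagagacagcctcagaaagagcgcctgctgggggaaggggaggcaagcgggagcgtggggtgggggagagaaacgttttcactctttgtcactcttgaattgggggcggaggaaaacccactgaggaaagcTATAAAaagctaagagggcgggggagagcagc
Wif1, chr10:121033754-121033959, plus strand: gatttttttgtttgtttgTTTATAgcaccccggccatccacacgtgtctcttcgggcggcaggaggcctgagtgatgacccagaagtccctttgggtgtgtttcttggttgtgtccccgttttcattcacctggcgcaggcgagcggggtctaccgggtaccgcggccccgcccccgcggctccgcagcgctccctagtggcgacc
Dkk1, chr19:30549666-30549746, minus strand: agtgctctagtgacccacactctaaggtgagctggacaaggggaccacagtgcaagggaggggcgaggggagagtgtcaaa

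A GATA, a TCF/LEF and a TATA motif were searched on both strands of the 300-base windows, and no match found in these 5 genes overlapped another. The GATA motif was written as AGATAA or AGATAG or TGATAA or TGATAG, and 29.8% of the 32851 windows in the set held at least 1 match. The TCF/LEF motif, through which beta-catenin acts on target genes, was written as CTTTGA and was held by 16% of windows, and TATAAA by 13.6%. The windows of Dkk1, Dkk2, Wif1 and Sfrp2 had 0 GATA matches, and that of Frzb had 1. The Dkk1 window had 2 TCF/LEF matches, those of Dkk2, Wif1 and Sfrp2 had 0, and that of Frzb had 1. TATAAA matched once on the gene's strand in Dkk2, with its first base at -32 from the RefSeq start, and once in Dkk1, at -54 and outside the printed part. In Wif1 it matched once on the opposite strand, at -232, and Sfrp2 and Frzb had 0 matches. The 2 TCF/LEF matches in Dkk1 began 174 and 117 bases before the RefSeq start. GENCODE begins the gene further upstream, so that the first match overlapped its exon by 1 base and the second lay in its non-coding exon sequence. They are printed with 12 bases on either side and the match in capitals, which for the first is the reverse complement of the motif.
Dkk1 upstream match, chr19:30549653-30549682, minus strand: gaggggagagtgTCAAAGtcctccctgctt
Dkk1 downstream match, chr19:30549596-30549625, minus strand: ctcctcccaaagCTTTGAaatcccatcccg
A match is a description of the letters in these windows, and binding was not measured.

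Dkk1, Dkk2 and Wif1 rose in the libraries labelled Gata2cKO, while Dkk3, Frzb, Sfrp1, Sfrp2 and Notum did not pass the test. Of the 8 antagonists, all tested, 3 rose and 0 fell at a limma adjusted p under 0.05, where 5.73% of all 12300 tested genes were called higher and 1.74% lower. At an unadjusted limma p under 0.05, 5 of the 8 were higher (Dkk3 and Frzb in addition) and 0 lower, where 19.2% of all tested genes were higher and 8.17% lower. The median log2 fold change of the 8 was 0.27, against 0.05 over all tested genes. A positive log2 fold change means a higher value in Gata2cKO, on a log2(TPM + 1) scale that understates changes of low genes. TPM scales each gene's abundance by its length and by the library's sum, so that libraries have nearly equal sums. In these bulk samples, a change in the number of cells of a type and a change in RNA per cell cannot be told apart. With the libraries removed 1 at a time, the count that rose was 3 without control replicate 1, 2 without control replicate 3 or Gata2cKO replicate 1, and 1 (Dkk1) without control replicate 2, Gata2cKO replicate 2 or Gata2cKO replicate 3.

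**Figure D1:**
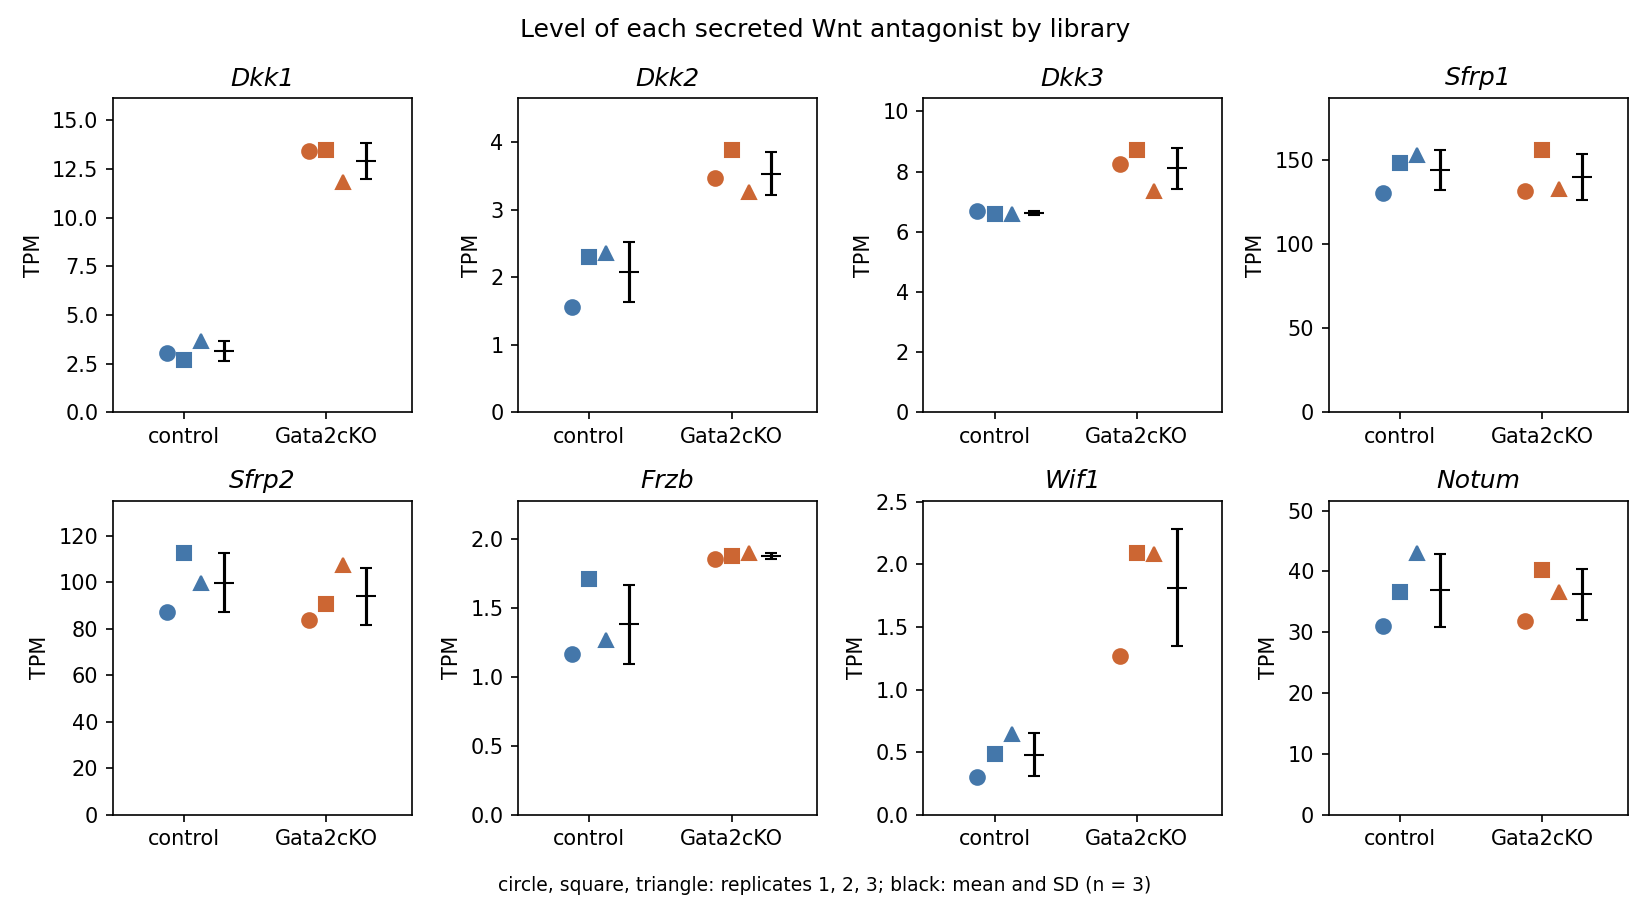
TPM of each antagonist (y axes, from 0, with their own range per gene) in the 3 control and 3 Gata2cKO libraries (x axes). Points are libraries, black marks the mean and SD (n = 3); Dkk1 sits at 2.69 to 3.67 TPM in controls and 11.8 to 13.5 TPM in Gata2cKO, while Sfrp1, Sfrp2 and Notum overlap between groups.

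Of the 3 Dkk genes, Dkk1 and Dkk2 encode antagonists that act on the Lrp co-receptors. Dkk1 (ENSMUSG00000024868.8), the prototype of the family, lies on chromosome 19 from 30545863 to 30549665 on the minus strand (GRCm38). Controls 1, 2 and 3 had 3.06, 2.69 and 3.67 TPM. Gata2cKO libraries 1, 2 and 3 had 13.4, 13.5 and 11.8 TPM. The lowest Gata2cKO library was above the highest control by a wide margin, and the 3 libraries of each group were close to each other. The log2 fold change was 1.75 (SE 0.11, 95% interval 1.49 to 2.01, limma adjusted p = 0.00165, n = 3 each), the 7th highest of the 12300 tested genes. The call held in each removal of a library (log2 fold change 1.67 to 1.84, highest adjusted p 0.0188). Adding 5 TPM in place of 1 before the logarithm gave a log2 fold change of 1.14, still past the threshold.

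Dkk2 (ENSMUSG00000028031.6) also binds Lrp5 and Lrp6 and can act as an antagonist or a weak agonist depending on the cell. It lies on chromosome 3 from 132085292 to 132180304 on the plus strand. Control replicates 1, 2 and 3 had 1.56, 2.30 and 2.36 TPM, and Gata2cKO replicates 1, 2 and 3 had 3.46, 3.88 and 3.26 TPM. The groups did not overlap, and control replicate 1 was the lowest library. Mean levels were 2.08 ± 0.447 and 3.53 ± 0.317 TPM (SD, n = 3 each), a ratio of 1.70. Limma gave a log2 fold change of 0.57 (SE 0.13, adjusted p = 0.0397), and the call held in 1 of the 6 removals, that of control replicate 1 (adjusted p = 0.0293). In the other 5 the call was lost (adjusted p 0.0663 to 0.130). The log2 fold change was 0.51 to 0.64 in those 5, against 0.44 without control replicate 1. Calls over all tested genes also dropped in those 5 removals, to 116 to 274, against 919 with all libraries. With 5 TPM added the log2 fold change was 0.27.

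Dkk3 (ENSMUSG00000030772.6), on chromosome 7 from 112116017 to 112159057 on the minus strand, is a divergent family member whose action on Wnt signalling is less settled. It was at 6.70, 6.59 and 6.60 TPM in the controls and at 8.25, 8.70 and 7.35 TPM in Gata2cKO. All 3 Gata2cKO values lay above all 3 controls, as they did for 5 of the 8 antagonists. That arrangement was found for 23.4% of tested genes, the opposite one for 10.5%, and either for 33.9%. The log2 fold change of 0.25 (95% interval 0.05 to 0.46) did not pass (limma adjusted p = 0.117) and did not do so under any of the 16 alternatives. The control values of Dkk3 had a coefficient of variation of 0.923%, the lowest of the 8 genes in controls, and those of Gata2cKO one of 8.51%.

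The summed level of the 3 Dkk genes was 11.3, 11.6 and 12.6 TPM in controls and 25.1, 26.0 and 22.5 TPM in Gata2cKO. Dkk1 made up 27.0%, 23.2% and 29.1% of that sum in controls and 53.4%, 51.7% and 52.8% in Gata2cKO. The order of the pair changed with it: Dkk3 was the higher of Dkk1 and Dkk3 in each control library and Dkk1 in each Gata2cKO library. TPM values are scaled for gene length, so levels of different genes can be set side by side.

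Wif1 and the genes with a Frizzled-like domain encode proteins that bind Wnts directly. Wif1 (ENSMUSG00000020218.11), on chromosome 10 from 121033960 to 121100650 on the plus strand, was the least abundant antagonist in controls. Controls 1, 2 and 3 had 0.305, 0.486 and 0.650 TPM, and Gata2cKO libraries 1, 2 and 3 had 1.27, 2.09 and 2.08 TPM. The groups did not overlap, and Gata2cKO replicate 1 was the lowest of its group. Means were 0.480 ± 0.172 and 1.82 ± 0.469 TPM (SD, n = 3 each), a ratio of 3.78. The log2 fold change was 0.92 (SE 0.15, 95% interval 0.57 to 1.27, limma adjusted p = 0.0178).

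Wif1 reached the 1 TPM filter only in the 3 Gata2cKO libraries, so it entered the test through the group in which it was high. Without any filter it stayed past the threshold (adjusted p = 0.0232). Its log2 fold change was 1.73 with 0.1 TPM added in place of 1 and 0.31 with 5 TPM added, both past the threshold. The call was lost without control replicate 2 (adjusted p = 0.0538), Gata2cKO replicate 2 (0.0600) or Gata2cKO replicate 3 (0.0713). It held in the other 3 removals.

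Frzb (ENSMUSG00000027004.3), on chromosome 2 from 80411970 to 80447625 on the minus strand, is known from cartilage. Its values were 1.16, 1.71 and 1.27 TPM in controls and 1.86, 1.87 and 1.90 TPM in Gata2cKO. The groups did not overlap, with control replicate 2 close to the Gata2cKO libraries, and the Gata2cKO values had a coefficient of variation of 1.08%. The log2 fold change was 0.28 (95% interval 0.03 to 0.53, limma adjusted p = 0.144), and none of the 15 alternatives in which it was tested brought it past the threshold. Of the cartilage markers Acan, Matn1 and Cnmd were not listed, and the 4 listed markers summed to 7.57 to 8.34 TPM in controls and 6.52 to 6.96 TPM in Gata2cKO. They did not share a direction. Each Gata2cKO library was above every control for Hapln1 (means 2.33 and 2.92 TPM, controls first) and below for Col11a2 (3.68 and 2.30) and Col2a1 (1.42 and 1.12). None of these passed limma (adjusted p = 0.176, 0.0523 and 0.194), and Col9a1 was not tested.

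Sfrp1 and Sfrp2 encode related Frizzled-like antagonists and were the most abundant of the 8. Sfrp1 (ENSMUSG00000031548.7), on chromosome 8 from 23411502 to 23449632 on the plus strand, was at 130.5, 149 and 153 TPM in controls and 132, 156 and 133 TPM in Gata2cKO. Sfrp2 (ENSMUSG00000027996.13), on chromosome 3 from 83766321 to 83774316 on the plus strand, was at 87.2, 113 and 99.6 TPM in controls and 83.7, 90.7 and 107 TPM in Gata2cKO. The ranges of both genes overlapped between groups along most of their length. Their log2 fold changes were -0.04 (95% interval -0.28 to 0.20, limma adjusted p = 0.831) and -0.09 (95% interval -0.38 to 0.21, limma adjusted p = 0.699). The intervals leave room for changes of that size in either direction.

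Notum (ENSMUSG00000042988.10), the Wnt deacylase and itself a known target of Wnt signalling, lies on chromosome 11 from 120653788 to 120661175 on the minus strand. It was at 31.0, 36.6 and 43.0 TPM in controls and 31.8, 40.3 and 36.7 TPM in Gata2cKO. Each Gata2cKO value fell inside the control range. The log2 fold change was -0.02 (95% interval -0.34 to 0.30, limma adjusted p = 0.946).

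**Figure D2:**
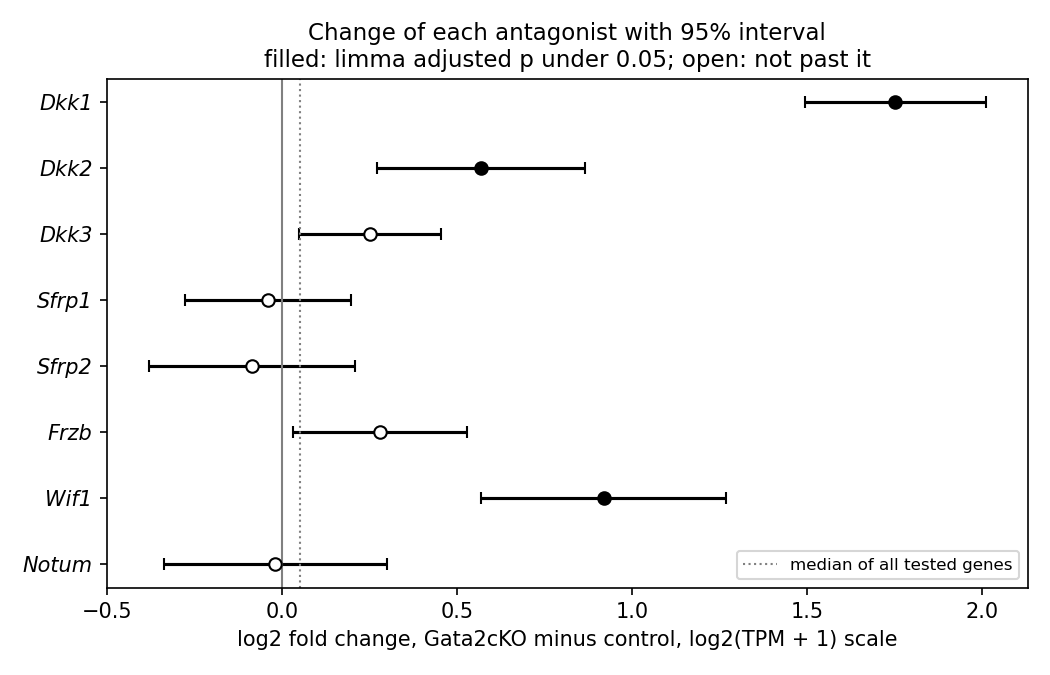
Log2 fold change of each antagonist in Gata2cKO over control (x axis, log2(TPM + 1) scale), with its 95% limma interval. Filled points passed an adjusted p of 0.05 (Dkk1 at 1.75, Wif1 at 0.92, Dkk2 at 0.57), open points did not, and the dotted line is the median of all tested genes at 0.05.

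The levels of the 8 genes spanned a wide range within each library. In controls the order of the means was Sfrp1 (144 TPM), Sfrp2 (99.8), Notum (36.9), Dkk3 (6.63), Dkk1 (3.14), Dkk2 (2.08), Frzb (1.38) and Wif1 (0.480). Dkk2 and Frzb were the neighbours in that order whose libraries overlapped. In Gata2cKO Dkk1 (12.9 TPM) stood above Dkk3 (8.10), followed by Dkk2 (3.53), and Frzb (1.87) and Wif1 (1.82) overlapped. Sfrp1 lay at the 93.7th percentile of mean level among all listed genes, Dkk1 at the 45.1st and Wif1 at the 15.95th.

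The summed level of all 8 antagonists overlapped between groups. The 8 genes together summed to 262, 312 and 311 TPM in the controls, and to 276, 317 and 304 TPM in the Gata2cKO libraries, in replicate order. Sfrp1, Sfrp2 and Notum made up most of it, at 281 ± 27.8 TPM in controls and 270.5 ± 20.6 TPM in Gata2cKO (SD, n = 3 each). The other 5, a split made after the values were seen, summed to 12.8, 13.8 and 14.6 TPM in controls and 28.3, 29.998 and 26.4 TPM in Gata2cKO. Dkk1 supplied most of that difference. Its share of the sum of all 8 was 1.07% ± 0.180 in controls and 4.34% ± 0.490 in Gata2cKO (SD, n = 3 each).

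**Figure D3:**
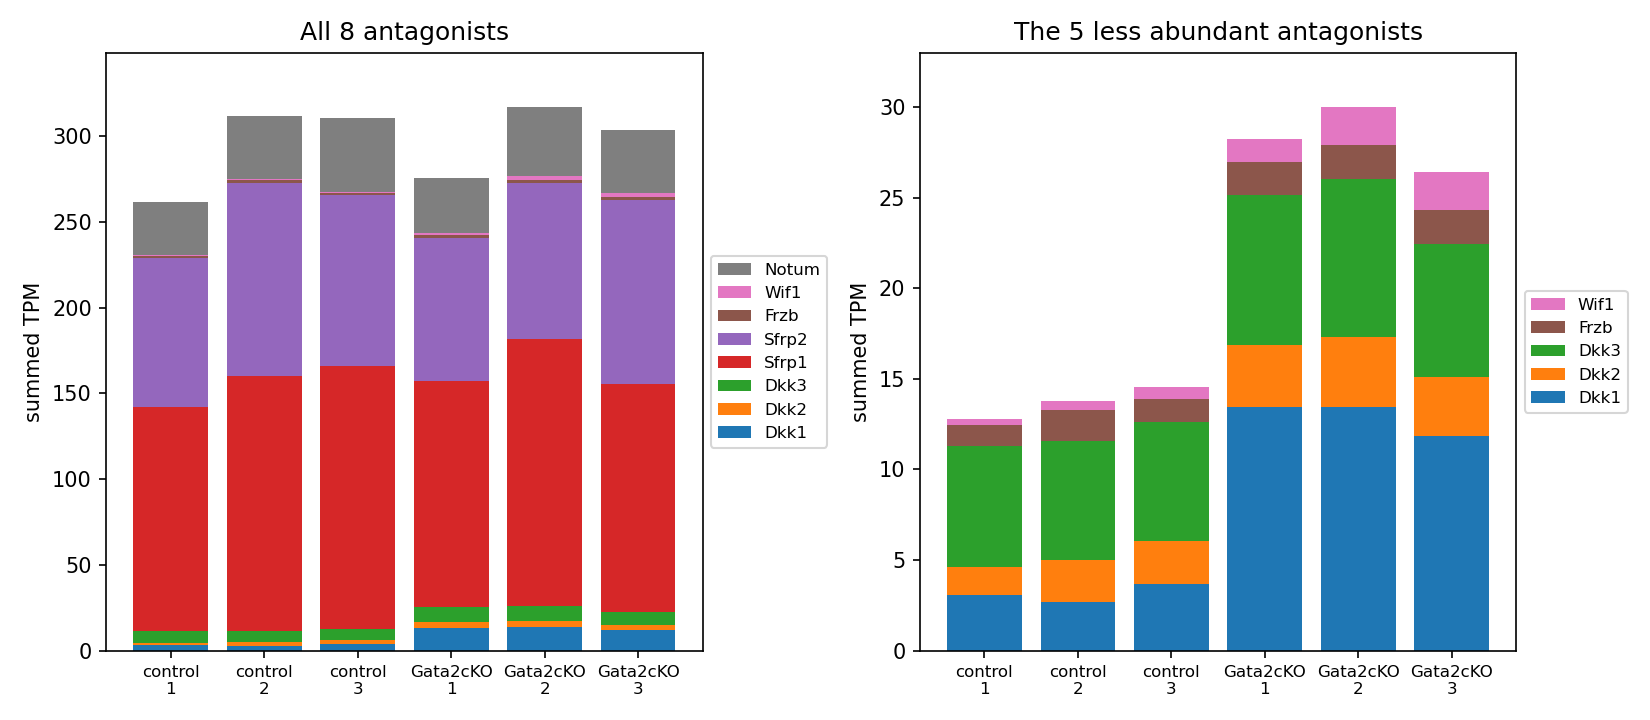
Summed TPM (y axes, from 0) of all 8 antagonists on the left and of the 5 less abundant ones on the right, as stacked bars for each of the 6 libraries (x axes). Sfrp1, Sfrp2 and Notum fill the left bars at 262 to 317 TPM in all, and on the right the Gata2cKO bars (26.4 to 29.998 TPM) stand above the control bars (12.8 to 14.6 TPM).

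The authors' deposited table gave the same 3 members at an adjusted p under 0.05, where 6.69% of all genes were called higher, and 0 members lower, where 6.58% of all genes were. In the authors' deposited table the log2 fold change of Dkk1 was 1.97 (adjusted p = 2.12e-07), that of Wif1 1.84 (adjusted p = 1.26e-08) and that of Dkk2 0.70 (adjusted p = 0.000467). For Dkk3, Frzb, Notum, Sfrp1 and Sfrp2 the authors' deposited table gave 0.23, 0.38, -0.09, -0.10 and -0.15, none past 0.05 (adjusted p 0.200 to 0.763). Both tests used the same 6 libraries.

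**Figure D4:**
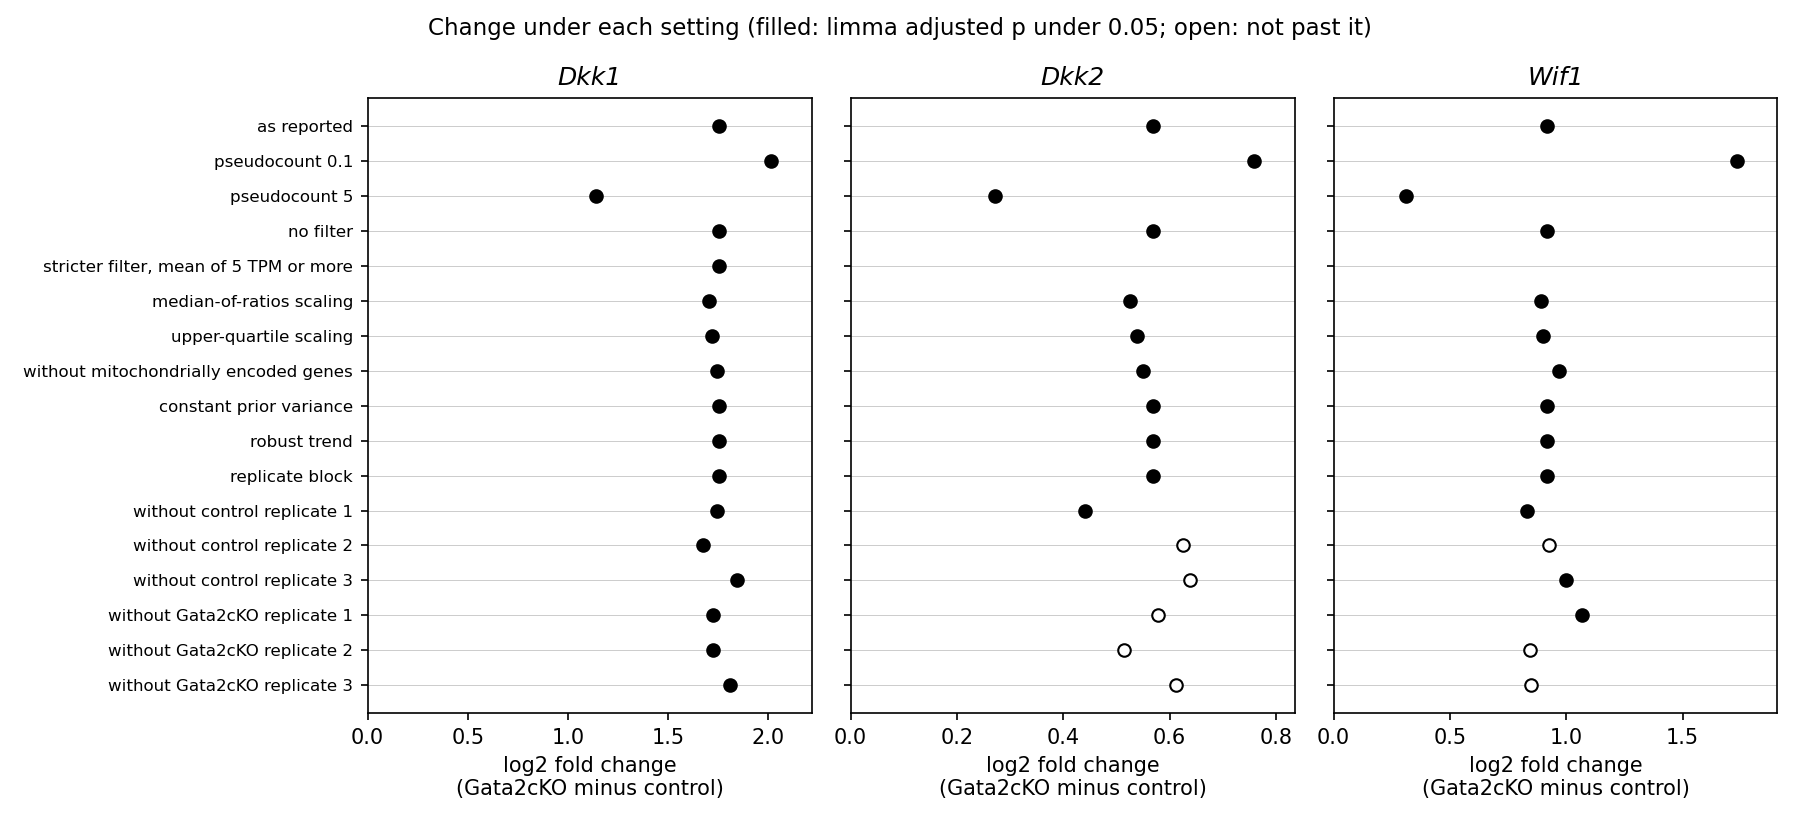
Log2 fold change, Gata2cKO minus control (x axes, from 0), of Dkk1, Dkk2 and Wif1 under each setting (y axis), filled where the limma adjusted p was under 0.05. Dkk1 is filled under every setting shown, while Dkk2 is open in 5 and Wif1 in 3 of the 6 removals of a library; the filter at a mean of 5 TPM leaves Dkk2 and Wif1 untested.

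Genes whose pattern over the 6 libraries was most like that of each antagonist that rose were found by Pearson correlation of log2(TPM + 1). For Dkk1 these were Tmem51 (r = 0.9998), Edc3 (r = 0.9987) and Cck (r = 0.9976), for Dkk2 Lfng (r = 0.9965), Cdca4 (r = 0.9962) and Rtcb (r = 0.9955), and for Wif1 Gja4 (r = 0.9992), Lgals3 (r = 0.9964) and Grap (r = 0.9946). With 6 libraries in 2 groups such values are common, since 77 genes had an r over 0.98 with Dkk1, 94 with Dkk2 and 41 with Wif1. Cck, a peptide hormone gene, went from a mean of 0.825 to 4.33 TPM, and Gja4, a gap junction gene of vessels, from 26.7 to 43.6 TPM.

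Other antagonist genes were taken from a list of 9, of which 8 were in the table and 6 were tested. Of these 1 rose and 0 fell by limma, against 2 higher and 2 lower at an unadjusted p under 0.05 and, in the authors' deposited table, 2 higher and 0 lower. Over all tested genes the limma shares higher and lower were 5.73% and 1.74%, and 19.2% and 8.17% unadjusted. In the authors' deposited table they were 6.69% and 6.58% of all genes. The one that rose was Sostdc1, which encodes a secreted antagonist of BMP and Wnt signals that also binds Lrp co-receptors, and its mean over all 6 libraries was the highest of the list, although Apcdd1, named after its values were seen, was above it in each control (48.3 ± 7.64 against 37.5 ± 4.59 TPM, SD, n = 3). Sostdc1 was at 32.4, 38.6 and 41.4 TPM in controls and at 74.2, 93.1 and 80.0 TPM in Gata2cKO. The groups did not overlap, and the log2 fold change of 1.12 (SE 0.12, limma adjusted p = 0.00739) stayed past the threshold under all 16 alternatives. Sfrp4, a relative of Sfrp1 chosen for mention after its values were seen, was at 7.01, 4.48 and 4.29 TPM in controls and 10.9, 13.7 and 7.11 TPM in Gata2cKO, with a highest control close to the lowest Gata2cKO library. It did not pass (log2 fold change 0.87, limma adjusted p = 0.0690), while the authors' deposited table gave it an adjusted p of 0.00598. The 2 genes lower at an unadjusted limma p under 0.05 were Sfrp5, another relative of Sfrp1, and Dkkl1. Sfrp5 was at 14.3 ± 3.63 and 10.2 ± 1.03 TPM and Dkkl1 at 1.91 ± 0.397 and 1.04 ± 0.671 TPM in controls and Gata2cKO (SD, n = 3 each). Neither passed limma (adjusted p = 0.175 and 0.156).

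Across 72 tested genes of the rest of the Wnt pathway, those other antagonists included, 7 rose and 1 fell. Over all tested genes 5.73% were called higher and 1.74% lower. The median log2 fold change of the 72 was 0.03. Among the proteins that antagonists bind, 5 of 12 tested Wnt ligand genes passed, where 7.47% of all tested genes did. Wnt7b rose from 2.11 ± 0.319 to 5.17 ± 0.109 TPM, Wnt2b from 13.7 ± 2.33 to 22.2 ± 2.55, Wnt2 from 1.06 ± 0.109 to 1.98 ± 0.299 and Wnt9b from 8.84 ± 1.53 to 12.9 ± 0.658 TPM (mean ± SD, n = 3 each, adjusted p by limma 0.00549, 0.0309, 0.0303 and 0.0454). Wnt5a, the most abundant ligand gene and a signal of the beta-catenin-independent branch, was at 261 ± 24.9 TPM in controls and fell to 181 ± 15.7 TPM (limma, adjusted p = 0.0284, SD and n as before). Of these 5, Wnt7b stayed past the threshold whichever library was removed. Wnt2 did so in 2 removals and the others in 1 each. Wnt2b also lost its call without mitochondrially encoded genes in the total (adjusted p = 0.0579), and Wnt9b in 5 of the 10 alternatives that kept all libraries (highest adjusted p 0.0955).

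Of the receptors, Fzd4 rose from 53.5 ± 3.95 to 86.8 ± 2.16 TPM and Fzd10 from 70.4 ± 1.96 to 99.1 ± 8.16 TPM (mean ± SD, n = 3 each, adjusted p by limma 0.00884 and 0.0207), 2 of 16 tested, with 0 lower. By the same limma threshold 5.73% of all tested genes were higher and 1.74% lower. At an unadjusted limma p under 0.05, 6 receptor genes were higher and 0 lower, where 19.2% and 8.17% of all tested genes were. The authors' deposited table called 5 receptor genes higher (Fzd1, Fzd2 and Fzd6 in addition) and 0 lower, where 6.69% and 6.58% of all genes were. Fzd2, the most abundant receptor gene, was at 571 ± 69.5 TPM in controls and 760 ± 58.0 TPM in Gata2cKO and did not pass limma (SD, n = 3 each, adjusted p = 0.0666). Fzd4 passed in 6 of the 6 removals and Fzd10 in 1. The receptors through which Dkk1 and Dkk2 act did not pass. Lrp5 was at 8.997 ± 0.697 and 9.06 ± 1.66 TPM, Lrp6 at 13.1 ± 0.179 and 13.9 ± 0.499, Kremen1 at 6.49 ± 0.622 and 8.12 ± 0.795, and Kremen2 at 14.6 ± 0.953 and 13.3 ± 2.43 TPM in controls and Gata2cKO (SD, n = 3 each). Adjusted p from limma was 0.996, 0.508, 0.132 and 0.531 in that order.

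None of 2 genes for Wnt acylation and secretion, 6 of an R-spondin axis list, 19 intracellular components and 9 canonical target genes passed the limma test at an adjusted p of 0.05, in either direction. The R-spondin axis list also held Ndp, a gene outside that axis. Of these 36 genes, 7 were higher and 4 lower at an unadjusted limma p under 0.05, where 19.2% and 8.17% of all tested genes were. The authors' deposited table called 1 higher and 5 lower, where 6.69% and 6.58% of all genes were. The genes with the highest mean over all 6 libraries in each list were Wls (15.7 ± 0.351 and 18.9 ± 0.780 TPM), Rspo1 (29.0 ± 8.65 and 36.6 ± 2.15), Ctnnb1 for beta-catenin (308 ± 26.0 and 360 ± 5.32) and the target gene Sp5 (101 ± 14.8 and 75.6 ± 9.48 TPM; SD, n = 3 each, controls first). The median log2 fold change of the 9 target genes was -0.17, and Axin2, a widely used readout of the pathway, was at 24.5 ± 1.81 and 27.4 ± 3.94 TPM (limma adjusted p = 0.465). Sp5 lay lower in each Gata2cKO library than in any control and did not pass (adjusted p by limma 0.0988). Of the 9 target genes 2 lay wholly below the controls and 2 wholly above, where 10.5% and 23.4% of all tested genes did. The target genes did not share a direction: 3 of the 9 were higher and 2 lower at an unadjusted limma p under 0.05, and the authors' deposited table called Ccnd1 higher and Sp5 and Nkd2 lower. In Gata2cKO the means of Bambi (99.3 TPM), Ccnd1 (95.01) and Myc (79.5), named after their values were seen, were above that of Sp5, against 71.3, 71.7 and 91.5 TPM in controls.

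**Figure D5:**
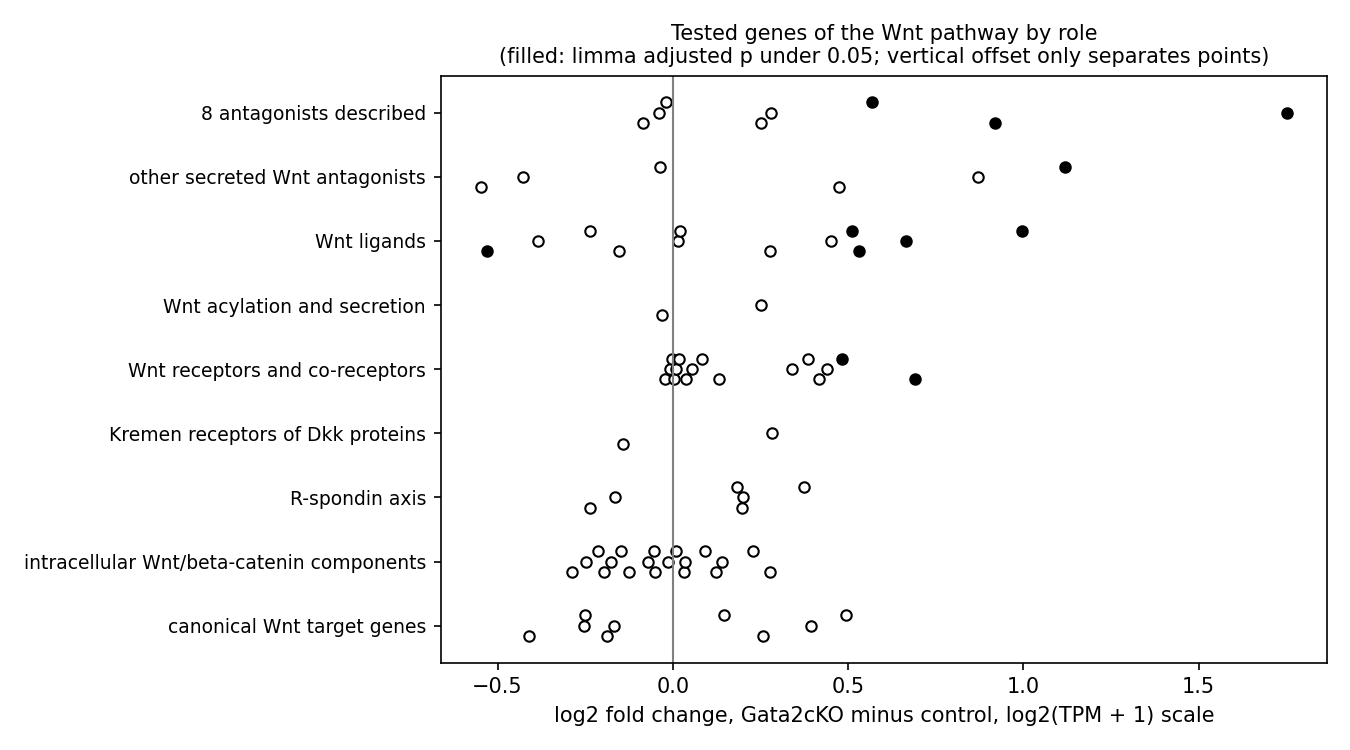
Log2 fold change of Gata2cKO over control (x axis, log2(TPM + 1) scale) for each tested gene in the Wnt pathway lists (y axis). Filled points passed an adjusted p of 0.05: 3 of the 8 antagonists and 8 of the 72 other genes, where 7.47% of all tested genes passed. Dkk1 lies farthest to the right at 1.75.

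Library-wide features bear on how firmly these values can be read. Library sums lay between 997351 and 998844 TPM and read depth is unknown, so no counting interval is given. In all, 919 of 12300 genes (7.47%) passed, 76.7% of them higher in Gata2cKO, and a median-of-ratios scaling made that share 55.8%. The 3 antagonists that rose passed under each scaling tried. Control replicate 1 stood apart on the second principal component (20.1, against -12.7 and -17.1 in the other controls) and had 21.9% mitochondrially encoded transcripts, against 13.2% to 16.3% in the other 5 libraries. Its level of the erythroid gene Hbb-bs was 6487 TPM, against 1952 and 2097 TPM in the other controls and 3682 to 4625 TPM in Gata2cKO. The mesenchyme marker Osr1 was at 33.2 TPM there, against 84.0 and 87.2 TPM in the other controls and 76.4 to 89.4 TPM in Gata2cKO. Whole-gene Gata2 was at 465 ± 81.2 and 459 ± 61.9 TPM in controls and Gata2cKO (SD, n = 3 each). This does not check the labels, since the floxed part is not resolved by a value for the whole gene, and each direction rests on the labels.

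Markers of several cell types moved between the same groups. By limma 5.73% of all tested genes were called higher and 1.74% lower. Of mesothelial markers 4 of 6 rose, with summed levels of 353 to 456 TPM in controls and 572 to 668 TPM in Gata2cKO. Of endothelial markers 3 of 7 rose (108 to 121 and 150.3 to 161 TPM), of mast cell markers 3 of 5 (97.0 to 140 and 272 to 297 TPM) and of duct epithelial markers 2 of 11 (895 to 1009 and 1148 to 1178 TPM). The mast cell marker Kit went the other way, with each Gata2cKO library below every control (2.90 ± 0.204 and 2.25 ± 0.208 TPM, SD, n = 3 each). It did not pass limma (adjusted p = 0.119), while the authors' deposited table called it lower (adjusted p = 0.0192). Of smooth muscle markers 2 of 6 fell (652 to 726 and 538 to 591 TPM). Of urogenital mesenchyme markers 4 of 11 fell, Tcf21, Osr2, Nr2f2 and Twist2, while the sum, led by Col1a1, overlapped between groups (6118 to 8106 and 6495 to 8740 TPM). Both mesenchyme and duct epithelium, the labelled tissue, were represented, with Krt18 the most abundant epithelial marker at 321 ± 20.1 and 349 ± 11.04 TPM (SD, n = 3 each). Of 5 skeletal muscle markers Myod1, Myog and Ckm were not listed in the table. Tnnt3 was at 1.72 to 2.24 TPM over the 6 libraries, and Acta1 was at 9.30 TPM in control replicate 1 and 0.324 to 1.94 TPM in the other 5. The part of these shifts in the levels of Dkk1, Dkk2 and Wif1 was not tested.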

How the data were processed

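RNA-seq of 6 mesonephros samples was used, 3 control and 3 Gata2cKO, assigned by library name. The authors' deposited table gave 1 value per gene and library, taken as TPM from the values, which summed to between 997351 and 998844 in each library. It also gave the authors' log2 fold change, p-value and adjusted p-value. STAR 2.7.11a, DESeq2, DESeq and GRCm38 are named per the submitters' processing notes, without roles. No source used here names the quantifier.

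Genes with 1 TPM or more in at least 3 libraries (12300) were tested. Limma 3.58.1 (R 4.3.3) fitted a group term to log2(TPM + 1), its prior variance following the mean, and p-values were adjusted over all tested genes (Benjamini-Hochberg, two-sided, threshold 0.05). The model was tested on simulated data. Gene positions came from GENCODE M21 (GRCm38), matched by identifier for all 8 members, and sequences from RefSeq (GRCm38.p6). No protein sequences were used here.

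The antagonists, lists and tests were chosen with earlier results of these data known. Named genes were all members, pathway list genes that passed (up to 4 per direction), the most abundant gene of each pathway list, and the 3 genes most correlated with each member that passed. The rule also takes the most abundant gene of each marker list and Gata2 and Osr2, and not every marker gene is printed. Further marker and antagonist genes were named after their values were seen. Alternatives covered pseudocount, filter, scaling, variance model, replicate block and removal of each library.

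Replicate numbers were checked for pairing by correlating deviations from group means between libraries of the same number (0.25, -0.07 and 0.04 for numbers 1, 2 and 3), and the libraries were treated as unpaired.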

Additional observations from a re-analysis of the deposited data

How the results depend on the processing

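The count of antagonists that rose was 3 under each other pseudocount, scaling and variance model and without a filter. It was 1 (Dkk1) with the filter at a mean of 5 TPM, which left Dkk2, Frzb and Wif1 untested, so those have no value there. Over the removals of 1 library it ranged from 1 to 3, and 0 fell in each. The same removals gave 116 to 1539 genes past the threshold in all, fewest without Gata2cKO replicate 1 and most without control replicate 1, 3 to 8 other Wnt pathway genes that rose (7 with all libraries) and 0 to 3 that fell (1 with all libraries). With the replicate number of the labels as a block, 3 antagonists rose and 0 fell, with adjusted p of 0.00189 for Dkk1, 0.0413 for Dkk2 and 0.00882 for Wif1, and 774 genes passed. The block was also read gene by gene for the other antagonist genes and for Wnt pathway genes that had passed. Among these it brought Sfrp4 past the threshold (limma adjusted p = 0.0331) and Wnt9b off it (limma adjusted p = 0.0548). Not every library correlated best with its own number. The share of calls that were higher in Gata2cKO was 62.8% with upper-quartile scaling and 60.6% without mitochondrially encoded genes. Sfrp1, Sfrp2 and Notum changed sign in 1 or 2 of 16 alternatives each, never past the threshold. The unknown read depth limits Wif1, Frzb and Dkk2 most, whose levels were within a few TPM of 0.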
